A study of Mus musculus with 11 samples.

Results

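The transcripts described here are those encoded by the mitochondrial genome of mouse male germ cells. They were taken as every row of the deposited UMI table whose name places it on chromosome M, which gave 37 of 20389 rows: 13 protein-coding genes, 2 ribosomal RNAs and 22 transfer RNAs. A UMI (unique molecular identifier) is a short random tag that marks one captured RNA molecule, so that copies made by PCR are counted once. No measured value entered the choice. The files spell the protein-coding genes without a hyphen (mtNd1 for mt-Nd1), and that spelling is kept for the values.

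The mitochondrial genome is a small circle that is transcribed from both strands into long precursors. The transfer RNAs sit between most of the other genes and are cut out, which releases the ribosomal RNAs and the messenger RNAs, most of which then receive a short poly(A) tail. The messenger RNAs encode core subunits of respiratory complexes I, III and IV and of ATP synthase (complex V), while all other subunits, and every factor that copies, transcribes and translates this genome, come from nuclear genes. In the testis, spermatogonia and meiotic cells differ in the shape and number of their mitochondria, and meiotic cells use testis versions of several respiratory subunits.

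The cells were live, green germ cells of adult, untreated Dazl-GFP reporter mice (Dazl is expressed in germ cells, and GFP is green fluorescent protein), sorted singly into wells and read at the 3' ends of polyadenylated RNA. Mouse 1 was processed by CEL-seq1 in 8 libraries, mouse 2 by CEL-seq2 in 1 library and mouse 3 by CEL-seq2 in 2 libraries, 1 of them sorted by a gate without index data. The protocol therefore goes with the animal, and the 2 cannot be told apart. The animal is the replicate (n = 3), and all stages come from the same 3 animals.

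Of 1920 wells, 1448 held at least 1000 nuclear UMIs, and 1235 of these fell into 13 stages that were built from odd-numbered autosomes and ordered along pseudotime. Stage 1 was undifferentiated spermatogonia-like, led by Sdc4, Egr4 and Ret. Stage 2 was differentiating spermatogonia-like (Crabp1, Dnmt3b). Stages 3 and 4 took the name preleptotene from the marker lists, with Rec8 leading stage 4. In stage 3 the only listed marker among the leading genes was Ccnd1, beside Ccna2, E2f2 and Plk1, genes of dividing cells. Whether stage 3 holds dividing spermatogonia was not tested. Stages 3 and 4 are in none of the grouped comparisons below. Stages 6 to 9 were leptotene and zygotene-like, the phases of meiosis in which homologous chromosomes break and pair. They were led among others by Dmc1, Prdm9, Ccnb3, Mnd1 and Meiob. Stage 9, with Gnas, Mnd1, Hemt1 and Gml first, had a median of 16849.5 UMIs per well. Stages 6, 7 and 8 had 7384, 5196 and 8394.5. Whether stage 9 belongs with them or with the later stages was not tested, and comparisons of stages 6 to 9 include it. Stages 11 to 13 were pachytene-like, the long phase after pairing, led by Aym1, Ldhc and Adam3. Stages 11 and 12 had nearly the same median pseudotime. Stage 5, led by Stra8 and Clu, and stage 10, led by Ptchd3, stayed unnamed. The names were rebuilt from marker lists and the authors' own staging was not used here. Mouse 2 had only 7 wells in stage 12, which is left out for that animal. Summed markers of Sertoli cells, the somatic nurse cells of the tubule, were 115 to 152 CPM (UMIs scaled to a fixed nuclear total) in stage 1, 2.12 to 9.16 in stage 13 and highest in stage 5 (mean 519), where Clu was the most abundant. All 6 Sertoli markers tested were lower in stage 13 than in stage 1, where 39.0% of all genes tested were lower. The other somatic lists reached at most 28.9, and the part of somatic RNA in the results below was not tested.

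Pieces of the mitochondrial genome show why some neighbouring rows cannot be counted independently. They were read from the GENCODE transcripts (GRCm38, plus strand), with the bases shared by 2 annotated genes in capitals and the flanks in lower case. The first 2 pairs are read from one shared messenger RNA each, in overlapping frames. The third pair lies on opposite strands, and whether the authors counted by strand is not given in the sources used here.
mt-Atp8 and mt-Atp6, chrM:7907-7989: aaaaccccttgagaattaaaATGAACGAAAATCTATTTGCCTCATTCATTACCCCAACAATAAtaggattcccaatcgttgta
mt-Nd4l and mt-Nd4, chrM:10147-10193: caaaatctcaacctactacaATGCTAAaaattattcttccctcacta
mt-Nd5 and mt-Nd6, chrM:13532-13585: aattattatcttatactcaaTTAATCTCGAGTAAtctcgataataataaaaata

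The overlap is 43 bases for mt-Atp8 and mt-Atp6 (M, 7927 to 7969), 7 bases for mt-Nd4l and mt-Nd4 (10167 to 10173) and 14 bases for mt-Nd5 and mt-Nd6 (13552 to 13565). In both shared messenger RNAs the 3' end belongs to the downstream gene. The count of mtAtp6 per UMI of mtAtp8 was 7.35, 40.1 and 38.3 in mice 1, 2 and 3. The count of mtNd4 per UMI of mtNd4l was 4.396, 16.1 and 15.1. Mice 2 and 3 were close to each other and mouse 1 lay below both for each pair. After a correction for UMI collisions, explained next, mouse 1 had 15.2 and 7.44, still below 42.3 and 43.1 for the first pair and 16.8 and 16.4 for the second.

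The UMIs of mouse 1 had 4 bases, so no gene could exceed 256 UMIs in a well, while mice 2 and 3 had 6 bases and 4096 possible UMIs. Mitochondrial genes are abundant enough to meet that limit. In mouse 1, 1459 well-by-gene values of mitochondrial rows stood at 75% of the limit or more, in 355 of 478 wells (74.3%), against 0 in mice 2 and 3. The affected wells were not spread evenly: 48.6% of wells in stage 7 and 100% in stage 13. Reads per mitochondrial UMI were 15.5 in mouse 1 against 5.85 and 6.74 in mice 2 and 3, whereas reads per nuclear UMI were 3.57, 4.24 and 3.56. Values of mouse 1 are therefore also given after the collision correction, which converts distinct UMIs into an expected number of molecules. It cannot recover a value that stands at the limit. In mouse 1 the highest value in a well was 256 for mt-Rnr2, mtCo1, mtCo2, mtAtp6 and mtCytb. Corrected values that include such wells are therefore uncertain.

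Protein-coding rows held 78.6%, 75.9% and 87.0% of mitochondrial UMIs in mice 1, 2 and 3. The 2 ribosomal RNAs, which form the core of the mitochondrial ribosome, held 21.3%, 24.1% and 12.98%, and the 22 transfer RNAs 0.109%, 0.0377% and 0.0429%. Each row counts 3' ends once per molecule and is not scaled for length. Since polyadenylated RNA was read, these percentages describe captured RNA and not the make-up of mitochondrial RNA in the cell. Of the 37 rows, 18 passed the filter on low counts (all 13 protein-coding genes, both ribosomal RNAs, and mt-Tm, mt-Tq and mt-Tt, the transfer RNAs for methionine, glutamine and threonine). The other 19, all transfer RNAs, had between 3 and 250 UMIs over all wells in the sums, with a median of 27, and were not tested. Nuclear transcripts at least 90% identical over at least 50 bases were found for 13 of the 37 rows, 11 of them protein coding. The copies of mtAtp6, mtCo3 and mtNd4l were 100% identical over 99.6%, 99.9% and 98.99% of the length, and that of mtNd3 99.7% identical over 99.1%. Reads could be split between such a pair. Of the nuclear copies looked for by name in the UMI table, Gm15772 was a row (6156 UMIs over all wells), but its transcript matched 0 mitochondrial transcripts at this identity.

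The mitochondrial share of UMIs (mitochondrial UMIs per 100 mitochondrial and nuclear UMIs) was highest in the leptotene and zygotene-like stages and lowest in the last pachytene-like stage in each animal. In mouse 1 it was 5.38% in stage 1, 11.2% in stage 7 and 2.32% in stage 13. In mouse 2 it was 12.8% in stage 1, 18.7% in stage 6 and 6.28% in stage 13. In mouse 3 it was 11.7% in stage 1, 18.02% in stage 7 and 6.08% in stage 13. The values of stage 13 lay below those of stage 1 within each animal, although stage 1 of mouse 1 was lower than stage 13 of mice 2 and 3. With the collision correction mouse 1 had 10.7%, 15.1% and 5.49% in stages 1, 7 and 13, nearer to the other mice but still below both.

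The share differed between stages (Friedman statistic over 12 stages, permutation test within mice, p = 1e-05, the smallest that 100000 permutations can give). From stage 1 to stage 13 it fell by 1.06 ± 0.14 on the log2 scale (SD, n = 3; two-sided exact permutation of stages within mice, p = 0.0184), with changes of -1.21, -1.03 and -0.95 in mice 1, 2 and 3. With the collision correction the change was -0.95 and the exact permutation p = 0.00659. With mouse 2 or mouse 3 left out, the exact permutation p was 0.0813 or 0.0574, with changes of -1.08 and -1.12. Staging without alignment across mice gave 8 other stages, with sums from mice 2 and 3 only. There the change from the first to the last stage was -0.64 (exact permutation p = 0.203). That last stage was led by Fam181a among others, and the cluster led by Adam3 among others came before it. Later values without alignment use these stages and mice. In both libraries of mouse 3 stage 7 was above stage 1 and stage 13 below it: 11.4%, 17.2% and 5.83% in stages 1, 7 and 13 of the gate-sorted library, and 12.3%, 18.7% and 7.26% of the index-sorted one. Stage 7 of the first (8 wells) and stage 13 of the second (9 wells) are below the minimum of 10 wells used elsewhere, and the lowest stage of the second was 11 (6.76%, 7 wells).

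**Figure D1:**
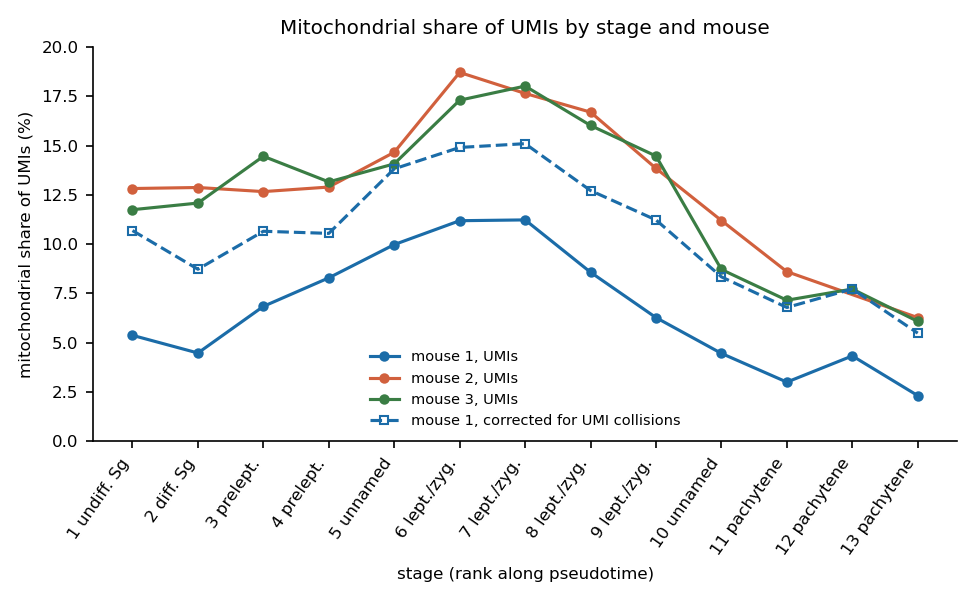
Mitochondrial share of UMIs (percent, vertical axis) against stage rank (horizontal axis), 1 line per mouse, with mouse 1 also shown after correction for UMI collisions (dashed). Each solid line peaks at stage 6 or 7, at 11.2% in mouse 1, 18.7% in mouse 2 and 18.02% in mouse 3, and is lowest at stage 13; mouse 2 has no point at stage 12.

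The share sets mitochondrial against nuclear RNA, and the nuclear RNA of a well changed strongly between stages. ERCC spike-ins, synthetic RNAs added to each well in equal amount, give a second scale. Nuclear UMIs per ERCC UMI in stage 1 were 149.6, 54.1 and 34.5 in mice 1, 2 and 3. The lowest stage, 6 in mouse 1 and 7 in mice 2 and 3, had 37.4, 12.97 and 8.51, and stage 13 had 453, 145 and 147. In each animal the highest was 11.2 to 17.3 times the lowest.

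Mitochondrial UMIs per ERCC UMI did not follow the share. In mouse 1 they were 8.498 in stage 1, 4.87 in stage 7 and 10.8 in stage 13, in mouse 2 they were 7.95, 2.78 and 9.72, and in mouse 3 they were 4.59, 1.87 and 9.52. With the collision correction mouse 1 had 17.5, 6.42 and 26.9. Stage 7, where the share was at or near its highest, was thus below stages 1 and 13 in every animal. The lowest value was in stage 4 in mice 1 and 2 (3.97 and 2.48) and in stage 7 in mouse 3. Both the share and the value per ERCC UMI were higher in stage 5 than in stage 4 in each animal. Stage 5 appears to hold Sertoli-like wells, and their part in this difference was not tested. The highest stage was 2.78, 4.60 and 5.09 times the lowest in mice 1, 2 and 3, a smaller span than that of nuclear RNA. With the collision correction the span in mouse 1 was 5.60 times, against 13.2 times for its nuclear UMIs, and its highest stage was 13 in place of 9.

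Between stage 1 and stage 13 the difference per ERCC UMI was 0.56 ± 0.43 on the log2 scale (SD, n = 3), with 0.34, 0.29 and 1.05 in mice 1, 2 and 3, and did not pass the test (two-sided exact permutation of stages within mice, p = 0.348). The nuclear difference was 1.71 ± 0.35 (exact permutation p = 0.0973), and was positive in all 3 mice. In mouse 3, stage 12 stood apart at 5.50 mitochondrial UMIs per ERCC UMI, between 9.52 in stage 11 and 9.52 in stage 13; its median of 18713 nuclear UMIs per well was also below the 91537 and 111164 of its neighbours.

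**Figure D2:**
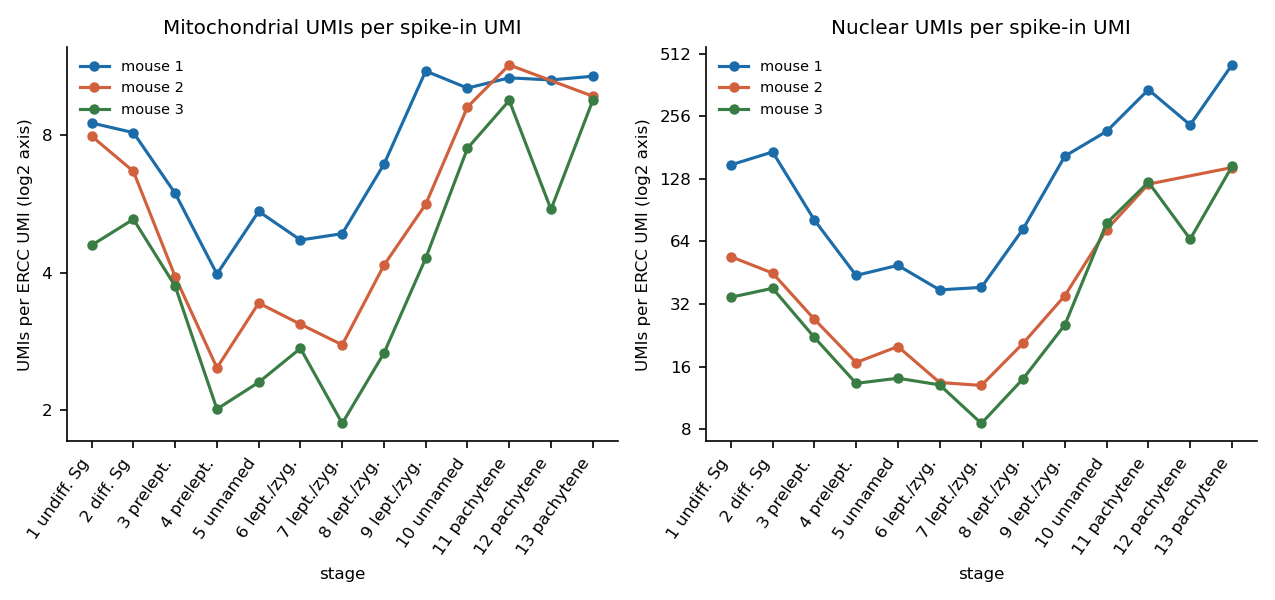
Mitochondrial (left) and nuclear (right) UMIs per ERCC spike-in UMI on log2 axes against stage, 1 line per mouse. Mitochondrial values fall from 8.498, 7.95 and 4.59 in stage 1 to 4.87, 2.78 and 1.87 in stage 7 and stand at 10.8, 9.72 and 9.52 in stage 13. Nuclear values fall from 149.6, 54.1 and 34.5 to 38.5, 12.97 and 8.51 and stand at 453, 145 and 147 in the same stages.

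Single wells spread widely within a stage. In stage 7 the median share per well was 12.5%, 19.03% and 19.6% in mice 1, 2 and 3, with single wells between 5.39% and 35.7%. In stage 13 the medians were 2.51%, 6.33% and 6.37%, with single wells between 1.28% and 10.6%. The interquartile ranges of stages 7 and 13 did not overlap in any animal (lower quartiles of stage 7 of 10.5%, 16.2% and 16.3%, upper quartiles of stage 13 of 3.05%, 7.08% and 7.15%). Within a stage, wells with more nuclear UMIs tended to have a lower share: the median Spearman rho over stages was -0.82, -0.31 and -0.34 in mice 1, 2 and 3, and -0.43, -0.25 and -0.26 after the collision correction. The 2 measures share the nuclear count and these wells share their library, so the rho values are a description only.

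**Figure D3:**
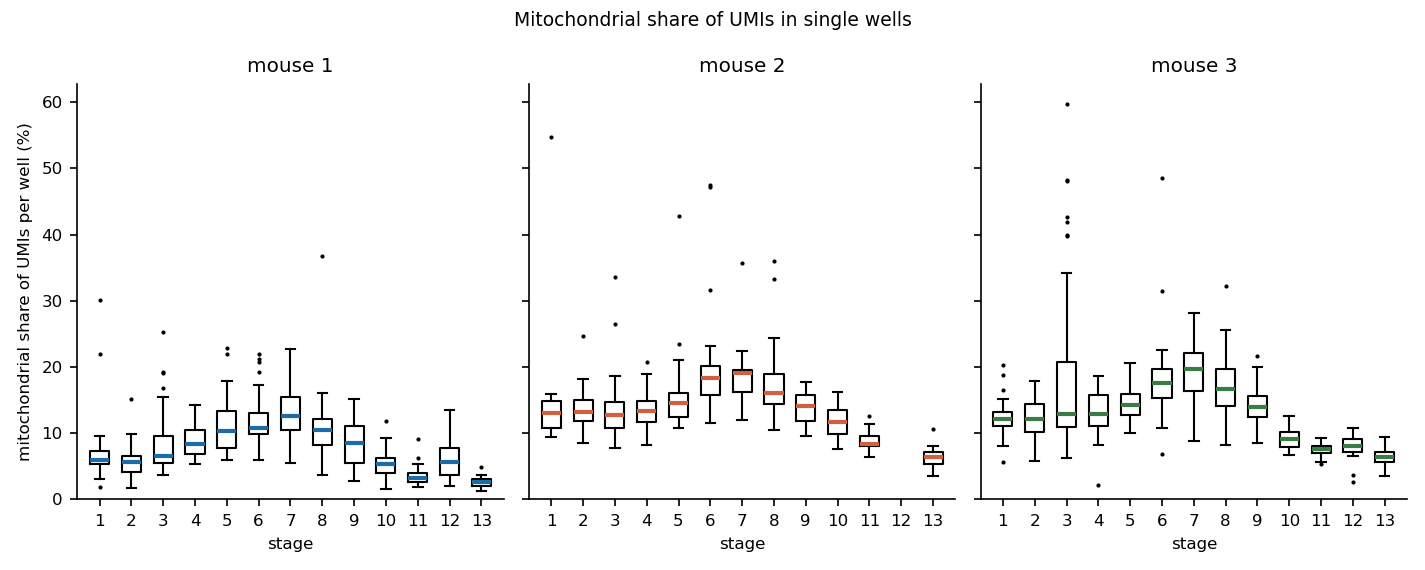
Mitochondrial share of UMIs per well (percent) by stage, 1 panel per mouse; boxes span the quartiles, lines mark the median, whiskers reach to 1.5 times the interquartile range and dots are wells beyond. Medians go from 12.5%, 19.03% and 19.6% in stage 7 to 2.51%, 6.33% and 6.37% in stage 13.

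Single genes were then tested with edgeR on the summed counts, with the mouse as a block, across 11606 genes with Benjamini-Hochberg adjustment. Relative to nuclear RNA, 15 of the 18 mitochondrial rows rose from spermatogonia-like stages (1 and 2) to leptotene and zygotene-like stages (6 to 9) and 0 fell, where 26.9% of all genes tested rose and 43.1% fell. The median log2 change of the 18 rows was 0.55, against -0.28 over all genes tested. From there to the pachytene-like stages (11 to 13), 15 rows fell and 1, mt-Tt, rose, where 28.0% of all genes fell and 39.5% rose, with medians of -1.05 and 0.14. mt-Tq, counted in both steps, had only 61 UMIs over all wells in the sums, 56 of them in mouse 1. mt-Tt had 652. From stage 1 to stage 13, 13 rows fell and 0 rose, where 39.0% of all genes fell and 36.3% rose, with medians of -0.74 and -0.07. Without the mouse as a block, the counts were 4, 15 and 0 rows.

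Of the ribosomal RNAs, mt-Rnr2 (16S, of the large mitochondrial ribosomal subunit) per 10000 nuclear UMIs was 68.7, 272 and 183 in stage 1 of mice 1, 2 and 3, 224, 504 and 283 in stage 7, and 23.6, 117 and 64.4 in stage 13. Mouse 1 had 253, 436 and 104 after the collision correction. Stage 7 was above stage 1, and stage 13 below it, in every animal. It rose by 0.71 ± 0.16 (log2 ± SE, edgeR adjusted p = 0.000101) into the leptotene and zygotene-like stages and fell by 1.43 ± 0.15 (edgeR adjusted p = 2.08e-11) into the pachytene-like stages. mt-Rnr1 (12S, of the small subunit) rose by 0.78 ± 0.15 and fell by 1.19 ± 0.14. Its share of mitochondrial UMIs over all stages was 8.27%, 4.69% and 1.51% in mice 1, 2 and 3.

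Of the 7 complex I subunits (NADH dehydrogenase, the entry point of electrons), 4 fell past the threshold between the first and the last stage. Comparing stage 13 with stage 1, mtNd1 fell by 0.92 ± 0.18 relative to nuclear RNA (edgeR adjusted p = 1.37e-05), while mtNd4l changed by -0.14 ± 0.15 and mtNd6 by -0.03 ± 0.31, neither past the threshold. mtNd4 was at -0.38 ± 0.20 (edgeR adjusted p = 0.0921). mtNd2, mtNd3 and mtNd5 fell by 0.42, 0.43 and 0.36, past the threshold but with adjusted p of 0.0494, 0.0134 and 0.0316. The signs of mtNd4l and mtNd6 changed without mouse 1, to 0.000543 and 0.04. With stages built without alignment across mice, mtNd2, mtNd4, mtNd4l and mtNd6 were at 0.22, 0.09, 0.51 and 0.47, mtNd2 and mtNd4l then past the threshold in the other direction (edgeR adjusted p = 0.0492 and 7.19e-05), and 7 rather than 13 mitochondrial rows were lower in the last stage. No direction is read for these 4 rows. mtNd6, the only protein-coding gene on the other strand, had 1053 UMIs over all wells in the sums, the lowest of the 13.

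The only complex III subunit, mtCytb (cytochrome b), rose by 0.77 ± 0.13 and fell by 1.12 ± 0.12 in the same 2 steps. Of complex IV (cytochrome c oxidase, which passes electrons to oxygen), mtCo1 per 10000 nuclear UMIs was 61.0, 223 and 248 in stage 1, 152, 349 and 417 in stage 7, and 22.5, 88.7 and 107 in stage 13 of mice 1, 2 and 3. After the collision correction mouse 1 had 162, 231 and 75.3. The gene rose by 0.67 ± 0.12 and fell by 1.32 ± 0.11. mtCo2 rose by 0.54 ± 0.13 and fell by 1.06 ± 0.13. mtCo3 rose least of this complex, by 0.25 ± 0.10 (edgeR adjusted p = 0.0289), and in the read table its value was -0.02. Of ATP synthase, mtAtp6 rose by 0.48 ± 0.13 and fell by 1.22 ± 0.12, and mtAtp8 rose by 0.35 ± 0.10 and fell by 1.08 ± 0.09.

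**Figure D4:**
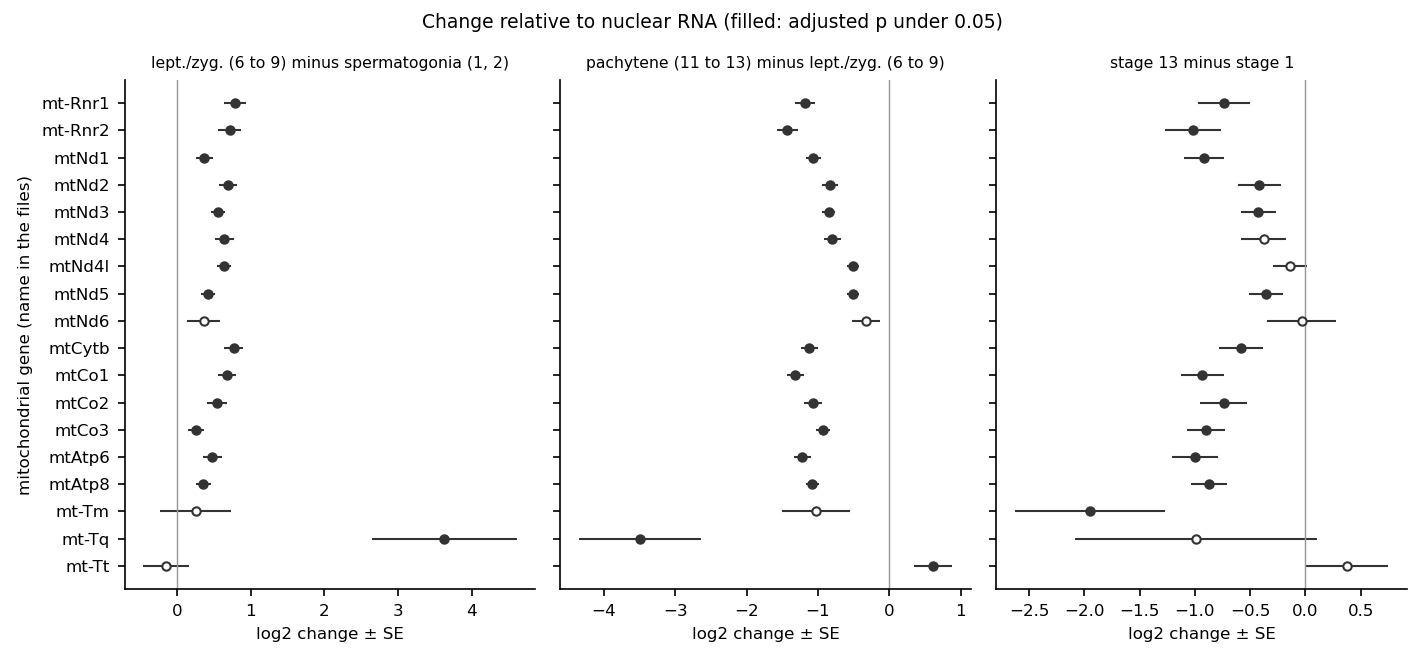
Log2 change ± SE relative to nuclear RNA of the 18 mitochondrial rows tested, in 3 comparisons; filled points passed an edgeR adjusted p of 0.05. In the left panel 15 rows are filled and right of 0; in the middle panel 15 are filled and left of 0, with mt-Tt alone filled on the right; in the right panel 13 are filled, all left of 0.

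Per ERCC UMI most of these rows changed in the opposite directions. The exceptions were mt-Tq, which rose and then fell on both scales, and mt-Tt, which rose on both in the pachytene-like step. Both rest on few UMIs. The changes of mt-Tq come almost only from mouse 1, so no direction across animals is read for it. From the spermatogonia-like to the leptotene and zygotene-like stages 17 rows fell and 1, mt-Tq, rose, where 77.5% of all genes tested fell and 4.52% rose. Into the pachytene-like stages 17 rose and 1, mt-Tq, fell, where 84.8% of all genes rose and 3.16% fell. On this scale most genes of the whole transcriptome moved the same way, so nothing particular to the mitochondrial rows is read from these counts. From stage 1 to stage 13, 10 rows rose and 0 fell, where 61.2% of all genes rose and 20.1% fell. The largest of these changes among protein-coding rows were mtNd6 with 1.34 ± 0.36 and mtNd4l with 1.21 ± 0.23, and mtCytb rose by 0.75 ± 0.22. mt-Rnr2, mtAtp6 and mtCo1 did not pass the test, at 0.32 ± 0.24, 0.33 ± 0.22 and 0.40 ± 0.22. Without the mouse as a block, the counts were 7, 14 and 0 rows.

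The composition of the captured mitochondrial RNA also shifted. As shares of mitochondrial UMIs, 8 rows rose and 3 fell from the leptotene and zygotene-like to the pachytene-like stages. On this scale 68.5% of all genes tested rose and 7.81% fell, since nuclear RNA rose against mitochondrial RNA, so that background says little about shares within the mitochondrial rows. Among the 8 that rose were 6 of the 7 complex I rows, with limits on mtNd3 and mtNd6 given below. mtNd5 was 2.53%, 1.71% and 2.02% of mitochondrial UMIs in stage 7 of mice 1, 2 and 3 and 5.74%, 3.10% and 3.65% in stage 13, so stage 13 was higher in every animal. It rose by 0.60 ± 0.09 (log2 ± SE, edgeR adjusted p = 2.74e-09). mtNd4 was 7.28%, 7.47% and 7.26% in stage 7 and 8.60%, 11.3% and 10.01% in stage 13, and rose by 0.29 ± 0.07 (edgeR adjusted p = 0.000104). mtNd4l rose by 0.61 ± 0.11, mtNd6 by 0.78 ± 0.23 (-0.24 without alignment across mice), mtNd2 by 0.27 ± 0.07 and mtNd3 by 0.26 ± 0.09. The other complex I row, mtNd1, was at 0.04 ± 0.07.

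The limit on UMIs in mouse 1 lowers abundant genes most in the stages with most RNA, which raises the share of rare ones, so these values were set beside those without mouse 1 and with the collision correction. mtNd5 was at 0.52 and 0.49, mtNd4 at 0.36 and 0.35, mtNd4l at 0.50 and 0.39 and mtNd2 at 0.24 and 0.26, past the threshold in both. mtNd3 was at 0.14 and 0.11 (edgeR adjusted p = 0.13 and 0.094) and did not pass in either. For mtNd6 these changes are not given. With the collision correction its mean share was 0.019 ± 0.019% in stage 7, 0.033 ± 0.018% in stage 9 and 0.030 ± 0.017% in stage 13 (SD, n = 3). No direction is read for mtNd6 in this step. mtCo3, which had risen by 0.17 ± 0.07, was at 0.14 without mouse 1 (edgeR adjusted p = 0.089). The rows whose share fell were mt-Rnr2 by 0.34 ± 0.07 and mtCo1 by 0.22 ± 0.06, both also without mouse 1 at -0.26 and -0.22, and mt-Tq by 2.23 ± 0.79. mt-Tq had 56 of its 61 UMIs in mouse 1. The eighth row that rose was mt-Tt, by 1.74 ± 0.28, from 0.006%, 0.015% and 0.006% of mitochondrial UMIs in stage 7 to 0.071%, 0.032% and 0.020% in stage 13. It had only 226, 100 and 326 UMIs over all wells in the sums of mice 1, 2 and 3, so these percentages rest on few UMIs. With the collision correction its mean was 0.0083 ± 0.0058% in stage 7 and 0.0243 ± 0.0059% in stage 13 (SD, n = 3).

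The share of mtNd2 among mitochondrial UMIs was 5.21%, 4.55% and 5.999% in stage 7 of mice 1, 2 and 3, then 7.54%, 7.22% and 10.2% in stage 9, the last leptotene and zygotene-like stage, and 7.51%, 5.36% and 7.78% in stage 13. Stage 9 was its highest stage in mice 2 and 3, and in mouse 1 stage 11 was slightly higher, at 7.73%. mtCo3 was lower in stage 9 than in stage 1 in every animal, at 6.02%, 5.87% and 5.05% in stage 9 against 8.39%, 7.56% and 7.16% in stage 1. From the spermatogonia-like to the leptotene and zygotene-like stages, 2 rows rose as a share of mitochondrial UMIs (mtCytb by 0.17 ± 0.07, mt-Tq by 2.81 ± 0.97) and 3 fell (mtCo3 by 0.34 ± 0.08, mtNd1 by 0.22 ± 0.08 and mt-Tt by 0.78 ± 0.33), where 11.9% of all genes rose and 60.1% fell.

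From stage 1 to stage 13, 6 rows rose as a share of mitochondrial UMIs (mtNd2, mtNd3, mtNd4, mtNd4l, mtNd5 and mt-Tt) and 2 fell (mt-Rnr2 and mtAtp6), where 49.6% of all genes rose and 24.8% fell. This count of 8 was 3 without mouse 2 and 1 without mouse 3, 13 without alignment across mice, and 1 without the mouse as a block.

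**Figure D5:**
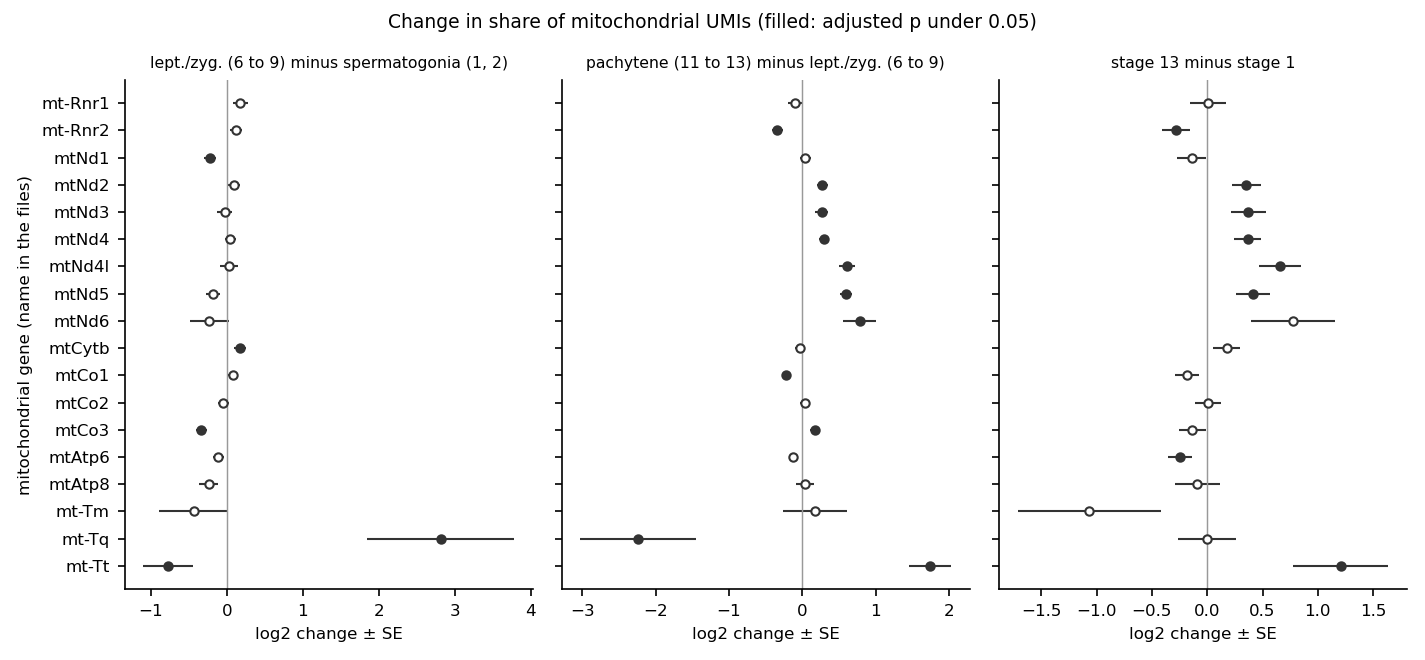
Log2 change ± SE in the share of mitochondrial UMIs of the 18 rows tested, in 3 comparisons; filled points passed an edgeR adjusted p of 0.05. In the middle panel mtNd2, mtNd3, mtNd4, mtNd4l, mtNd5, mtNd6, mtCo3 and mt-Tt are filled and right of 0. Filled and left of 0 are mt-Rnr2, mtCo1 and mt-Tq.

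Nuclear genes of the same respiratory complexes were counted on the same scale. Of 84 nuclear genes tested, 61 rose and 14 fell relative to nuclear RNA between the leptotene and zygotene-like and the pachytene-like stages. In this step 15 mitochondrial rows fell. The 84 include cytochrome c, an electron carrier that was listed with complex IV and is not a subunit. The background on this scale is 39.5% of all genes higher and 28.0% lower. The median log2 change was 0.77, against 0.14 over all genes tested. From the spermatogonia-like to the leptotene and zygotene-like stages 28 rose and 40 fell (background 26.9% and 43.1%), and from stage 1 to stage 13, 49 rose and 15 fell (background 36.3% and 39.0%).

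In complex I, 28 of 36 nuclear subunits rose and 3 fell in the pachytene-like step. Between the first and the last stage Ndufc1 rose from 133 ± 16.2 to 545 ± 50.5 CPM (SD, n = 3; log2 change 2.39 ± 0.15 SE), and Ndufa12 and Ndufv2 rose by 2.25 and 2.18. The 3 that fell between these stages were Ndufa11, Ndufs8 and the X-linked Ndufb11, the last from 154 ± 14.8 to 2.16 ± 1.89. All 9 nuclear complex III subunits tested rose in the pachytene-like step, with Uqcrq rising by 1.68 ± 0.09. In complex II, which has no mitochondrially encoded subunit, Sdha, Sdhb and Sdhc rose by 0.80, 0.46 and 0.35.

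Complex IV has testis versions of some of its small subunits. Between the first and the last stage Cox8c and Cox6b2, the testis versions, rose from 83.7 ± 43.3 to 1452 ± 254 and from 60.8 ± 2.68 to 792 ± 51.2 CPM (SD, n = 3). Cox8a and Cox6b1, their counterparts in other tissues, fell by 4.17 and 3.07 on the log2 scale. Cycs, somatic cytochrome c, fell by 2.43 ± 0.12 and Cyct, testis cytochrome c, rose by 2.34 ± 0.11 in the pachytene-like step. Of the 17 genes listed with complex IV and tested, cytochrome c included, 10 rose and 6 fell in that step. The others that fell were Cox7b (X-linked), Cox7c and Ndufa4 beside Cox6b1, Cox8a and Cycs. Of 18 nuclear complex V subunits, 11 rose and 5 fell.

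Factors that copy and transcribe the mitochondrial genome moved in both directions. Of 15 transcription factors and cofactors tested, 7 rose and 5 fell from stage 1 to stage 13 (background 36.3% and 39.0%). Tfam, which packages mitochondrial DNA and starts its transcription, went from 89.6 ± 23.6 in stage 1 to 91.9 ± 25.2 in stage 7 and 13.8 ± 5.09 in stage 13 (CPM, SD, n = 3), and fell by 1.82 ± 0.16 in the pachytene-like step. Pprc1, a coactivator of mitochondrial biogenesis, went from 205 ± 36.5 to 41.9 ± 17.6 and 7.54 ± 0.92. Tfb1m, a methyltransferase of mitochondrial ribosomal RNA, rose by 2.03 ± 0.24 into the leptotene and zygotene-like stages. Of 14 replication genes, 4 rose (Lig3, Polg, Rnaseh1 and Tk2) and 8 fell, with a median log2 change of -1.35 against -0.07 over all genes tested. Among those that fell, Ssbp1, which coats single-stranded mitochondrial DNA, went from 222 ± 10.4 to 22.3 ± 5.35, and Samhd1 fell by 3.40 ± 0.22.

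Of 27 genes of mitochondrial RNA processing and decay, 14 rose and 5 fell in the pachytene-like step (background 39.5% and 28.0%). Rexo2, a nuclease that removes very short RNAs, fell by 1.78 ± 0.17 and then rose by 2.39 ± 0.15, the reverse order of the mitochondrial rows. Trmt10c, a subunit of mitochondrial RNase P, fell by 2.63 ± 0.37 from stage 1 to stage 13. Of 77 mitochondrial ribosomal proteins, 47 rose and 7 fell in the pachytene-like step, after 15 rose and 42 fell in the step before (background 26.9% and 43.1%). Of 27 import genes, 15 rose and 6 fell in the pachytene-like step. Timm8a2 rose by 2.63 ± 0.25 from stage 1 to stage 13 while its X-linked relative Timm8a1 fell by 5.60 ± 0.39.

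The even-autosome genes whose level followed the mitochondrial share most closely over stages, out of 3375, were Caprin2 (mean within-mouse Pearson r of 0.952 over 12 or 13 stages), Mex3c (0.935), Rnf11 (0.930), Med21 (0.921) and Ssb (0.917). Caprin2 was at 132 ± 13.03 CPM in stage 1, 325 ± 81.3 in stage 7 and 36.5 ± 8.46 in stage 13 (SD, n = 3). The stages share their animal and library, and these genes were picked for the likeness, so r is given without a test.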

How the data were processed

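Tables of 3 kinds were deposited by the authors: UMI counts, read counts and transcripts (estimated counts, rounded here to whole numbers), with BWA 0.7.10 and the mm10 build named in the submitters' processing notes. UMI counts were the main values. Annotation and counting settings are not given in the sources used here. Columns of mouse 1 do not separate its 8 libraries, which were pooled.

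Wells with at least 1000 nuclear UMIs (autosomes, X and Y, without Rn45s) were staged on odd-numbered autosomes without the listed genes: 1500 variable genes, Seurat 5.3.0 anchors (15 dimensions), scanpy 1.11.5 with 15 principal components, Leiden resolution 1 and diffusion pseudotime. Of 17 clusters, 13 were stages; 3 of low depth and 1 with too few wells were left out. Counts were summed per mouse and stage where at least 10 wells were present (38 sums). Nuclear UMIs per mouse in the sums were 16328328, 5446299 and 17536256.

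edgeR 4.0.16 (quasi-likelihood, mouse as a block because all stages come from the same 3 animals) was fitted to 11606 genes, scaled to nuclear UMIs with TMM, to ERCC UMIs or to mitochondrial UMIs. On simulated data it recovered 196 of 200 changed genes in the comparison of stage 13 with stage 1, with 5 false calls among 11606 genes. Whether false calls are as few in the measured counts was not tested. The estimated changes of all 200 changed genes had a median of 2.02 on the log2 scale, taken in the simulated direction. The median over the mitochondrial rows in this comparison was -0.74, and the recovery rate does not apply to changes that small. Nothing says that wells of 1 mouse came from separate preparations, so the animal was kept as the replicate (n = 3). The edgeR p-values rest on the spread left between sums after the mouse block and the stages are fitted. Single values used exact or 100000-fold permutation of stages within mice. The exact p of a stage difference ranks it against differences between exchanged stages. It does not measure how closely the 3 animals agree. DESeq2 1.42.0 was an alternative.

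All 18 mitochondrial rows that passed the filter are named. Of each nuclear list, the rule took up to 4 called genes with the largest change and a mean of at least 20 CPM. The remaining list members that are named were added after their values were seen, to fill counts of 6 or fewer. The members, lists and tests were chosen with earlier results of these data known.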

Additional observations from a re-analysis of the deposited data

Results flagged for a closer look

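Wells outside the stages also carried mitochondrial RNA, and their share of UMIs is given here as values only. Wells under 1000 nuclear UMIs had a share of 14.5%, 17.6% and 17.98% in mice 1, 2 and 3 (223, 63 and 186 wells), at 0.302, 0.374 and 0.373 mitochondrial UMIs per ERCC UMI, below every stage of each animal. The low-depth cluster led by Lrrc17 and AY074887 had 10.5%, 32.7% and 25.7% in mice 1, 2 and 3, above every stage of mice 2 and 3, at 1.60, 2.01 and 1.82 per ERCC UMI. The low-depth cluster led by Plekhg3 and Fgf16 had 12.3%, 22.3% and 12.6%. The low-depth cluster led by Vmn2r55 and A630089N07Rik had 18.1% (2 wells), 5.15% (4 wells) and 10.9% (32 wells). The cluster led by Prm2 and Prm1, genes of spermatid chromatin, had 4.74% (5 wells), 14.97% (3 wells) and 10.04% (7 wells).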

How the results depend on the processing

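All stages come from the same 3 animals, so the mouse was the replicate block. Without that block the counts of mitochondrial rows past the threshold were 4 (higher in leptotene and zygotene-like stages) and 0 (lower in stage 13) relative to nuclear RNA, 7 (lower in leptotene and zygotene-like stages) and 0 (higher in stage 13) per ERCC UMI, and 1, 1 and 5 as a share of mitochondrial UMIs for stage 13 against stage 1 and the earlier and later steps. The fall of the mitochondrial share between stages 1 and 13 was -1.08 and -1.12 without mouse 2 and mouse 3. It was -1.12 without the gate-sorted library of mouse 3 (fewer than 10 wells then remain in its stage 13). With at least 20 wells per sum, which removes these stages of mouse 2, it was -1.08. Without alignment across mice the first and last of 8 other stages, in mice 2 and 3 only, differed by -0.64. None of these changes passed the threshold (exact permutation p = 0.0574 to 0.203). All other values without alignment also rest on mice 2 and 3. Those given for stage 13 against stage 1 compare the same first and last stages. Leaving out each mouse gave -1.12 to -0.99. As a share of mitochondrial UMIs, stage 13 against stage 1 gave 1 to 8 rows over the left-out mice (3 without mouse 2, 1 without mouse 3), 4 with 20 wells per sum and 13 without alignment. The earlier step gave 3 to 6 rows over the left-out mice, 3 without the gate-sorted library or with 20 wells per sum, 8 with the collision correction, 10 in the read table and 9 in the transcripts table. The later step gave 7 to 12 over the left-out mice. Without alignment 7 rows were lower in the last of its stages than in the first, relative to nuclear RNA.

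With median-ratio size factors 24 of the 84 nuclear respiratory genes were lower in stage 13 and 43 higher. Of all genes tested, 44.2% were lower and 31.8% higher under this scaling. The median log2 change of all genes was -0.31 in place of -0.07. Reversed signs relative to nuclear RNA in stage 13 against stage 1 were mtNd2 (0.22), mtNd4 (0.091), mtNd4l (0.51) and mtNd6 (0.47) without alignment, mtNd4l (0.000543) and mtNd6 (0.043) without mouse 1, and mtNd6 without mouse 3 (0.060) or the block (0.11). In the earlier step mt-Tt was at 0.17 without mouse 1 and 0.040 without alignment, and mtCo3 at -0.018 in the read table. Per ERCC UMI, stage 13 against stage 1, mt-Tm was at 0.15 in the read table and mt-Tq at -0.089 without mouse 3. As a share of mitochondrial UMIs in the later step mtNd3 was at -0.000520 in the read table and mtNd6 at -0.24 without alignment. The cause of these changes was not tested. Of 2777 values of single genes under alternatives, 2508 kept direction and side of the threshold. Restricting ERCC species changed nothing, since all 85 stayed under the limit set. Of the 22 transfer RNAs, 19 had counts too low to test. The wells were read at 3' ends of polyadenylated RNA, and the parts of capture and depth in these low counts were not tested.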

Other observations

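Of the genes on the mitochondrial lists, 6 tested ones lie on the X chromosome. Between stage 1 and stage 13, 5 of them fell (Cox7b, Hsd17b10, Ndufb11, Timm17b and Timm8a1) and 1, Ndufa1, rose relative to nuclear RNA. Over the 431 X-linked genes tested, 383 (88.9%) fell in this comparison (edgeR adjusted p under 0.05). Ndufa1, a small complex I subunit, was at 45.4 ± 20.7 CPM in stage 1, 780.3 ± 86.2 in stage 7 and 61.1 ± 9.18 in stage 13 (SD, n = 3), and fell by 2.57 ± 0.10 on the log2 scale from the leptotene and zygotene-like to the pachytene-like stages.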
